A study of Mus musculus with 12 samples.

Results

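Skin of mice that lacked *Cdc42* in keratinocytes was compared, over all expressed genes, with skin of control mice. Both groups received only the vehicle, without ZnO nanoparticles (NPs). The libraries of this comparison were KO replicates 1 to 3 and WT replicates 1 to 3, which are 6 of the 12 libraries sequenced, and 18822 of the 52636 genes of the count table had enough counts to be tested. All mice were labelled as C57BL/6 animals of 3 months, and the shaved back skin was given normal saline with hydroxypropyl methylcellulose (HPMC), a thickener, until it was collected on day 14. KO mice carried 2 floxed *Cdc42* alleles and a Cre recombinase driven by the keratin K5 promoter, so that deletion was limited to cells that use this promoter, the basal cells of the epidermis and of the hair follicle and their progeny. Fibroblasts, fat cells, vessels, muscle and most immune cells of the same sample keep *Cdc42*. The controls, which the labels call wild type, had no Cre but could be heterozygous or homozygous for the floxed allele, so the Cre transgene itself was present only in KO. The other 6 libraries, labelled WT+ZnO NPs and KO+ZnO NPs, came from mice labelled with these genotypes and given ZnO NPs. They were used as a second pair of groups. All 12 libraries were fitted together, so these libraries also entered the filter and the estimate of spread behind the comparison of KO and WT.

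Cdc42 is a small GTPase. Bound to GTP it recruits effectors such as WASP proteins, PAK kinases and the Par6 and aPKC polarity complex, and through them it organizes actin filaments, cell polarity and the assembly of cell junctions. In skin it is known for its part in keeping hair follicle progenitors in the follicle lineage through beta-catenin, in the basement membrane and in the barrier. Whole skin mixes keratinocytes, follicles in some stage of the hair cycle, sebaceous glands, dermis, fat, vessels, muscle and immune cells, and in such bulk RNA fewer cells of a type and less RNA per cell cannot be told apart.

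Total counts of the 6 libraries lay between 22295946 and 28867802. Levels below are CPM (counts scaled to a library total of 1e6) adjusted by the TMM factors of edgeR. The KO replicates stood further apart than the WT replicates, with a chi-square per degree of freedom over genes of 68.6 to 105.5 against 40.75 to 55.26. KO 1 held Y-linked transcripts (235 CPM in sum) and 0 CPM of *Xist*, whereas the other 5 libraries held 0 CPM of Y-linked transcripts and 544 to 1052 CPM of *Xist*. The library of KO 1 thus goes against the study's description of the KO mice as female, and the counts of listed genes called are given with and without it. Nothing in the labels says whether the replicates of a group shared a litter or a day, and p-values measure the spread between these samples only.

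The level of *Cdc42* was measured first. *Cdc42* (ENSMUSG00000006699; GRCm38 chromosome 4, 137319696 to 137357720, minus strand) stood at 606, 628 and 616 CPM in WT and 415, 464 and 439.8 CPM in KO. Each KO library was lower than each WT library. The 1.40-fold difference (log2 fold change -0.49, SE 0.15, edgeR adjusted p = 0.0653) missed the 0.05 threshold, and the counts are summed over all exons, so they do not show whether the deleted part was gone. The paper reported PCR of the alleles as evidence of the deletion, and by immunohistochemistry no Cdc42 protein in KO mice. In the ZnO NP groups, *Cdc42* stood at 311, 350.1 and 317 CPM in WT+ZnO NPs and 365, 453 and 314 CPM in KO+ZnO NPs, and the libraries labelled WT+ZnO NPs were thus below those labelled KO without ZnO NPs. That goes against their label, and wherever they are used below they are called by it only.

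Between KO and WT, 1540 genes were called at an adjusted p below 0.05 by the quasi-likelihood F test of edgeR (p adjusted by Benjamini-Hochberg), or 8.18% of the genes tested. Of these, 867 (4.61% of the genes tested) were higher in KO and 673 (3.58%) lower. The change was at least 4-fold for 306 genes that rose and for 143 that fell, while the median log2 fold change of all genes tested was 0.01. The groups did not overlap, with all 3 KO libraries above all 3 WT libraries, for 18.6% of the genes tested, and with all 3 below for 19.9%. With 3 libraries against 3, an exact permutation test of a single gene cannot give a two-sided p below 0.1, so calls come only from the fit across all genes.

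**Figure D1:**
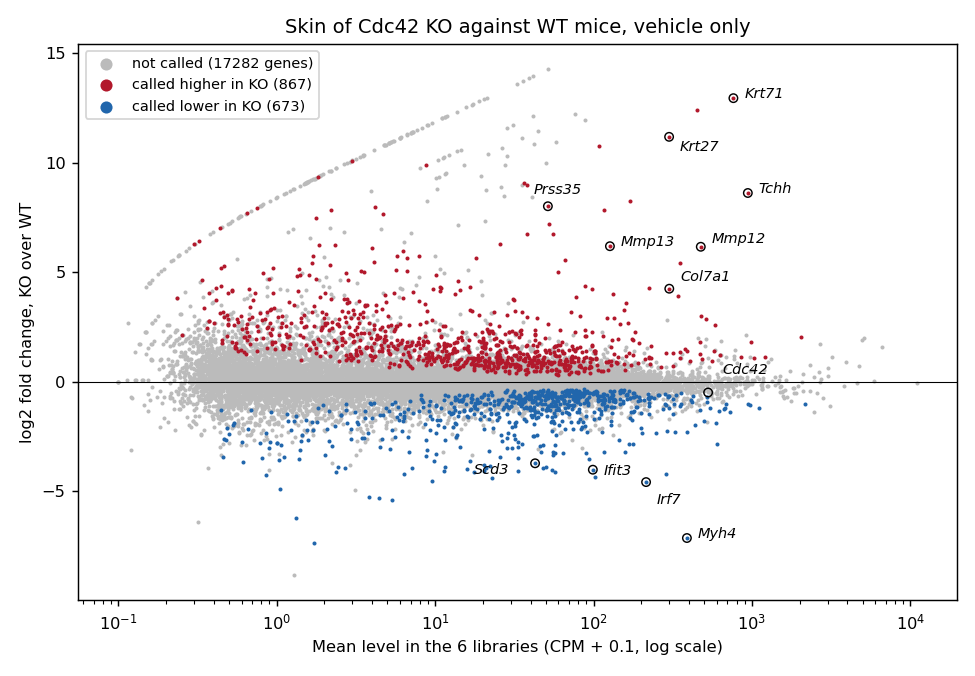
Log2 fold change of KO over WT against the mean level in the 6 libraries (CPM + 0.1, log scale) for the 18822 genes tested, with 867 called higher in red, 673 called lower in blue and the rest in grey. The arc of points at the top left is formed by genes at 0 counts in all WT libraries, whose fitted fold changes depend on the prior count and are not measured folds.

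The calls varied with the libraries used. Leaving out 1 library gave 377 calls without WT 2, 620 without WT 3, 774 without WT 1, 785 without KO 1, 917 without KO 2 and 774 without KO 3. Of the 1540 called genes, 350 were called in all 6 of these fits, 168 higher and 182 lower in KO. Of the 337 genes examined by name, 207 were called, and 74 of those in all 6 fits. They are described below as called throughout, and for a called gene printed with an SE the number of these fits that called it is given unless it was all 6. A number of listed genes called without 1 library counts every member called in that fit, whether or not it was called with all libraries. Lists and their members were chosen with earlier results of these data known. Their shares beside those of all genes are therefore descriptions and not tests.

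**Figure D2:**
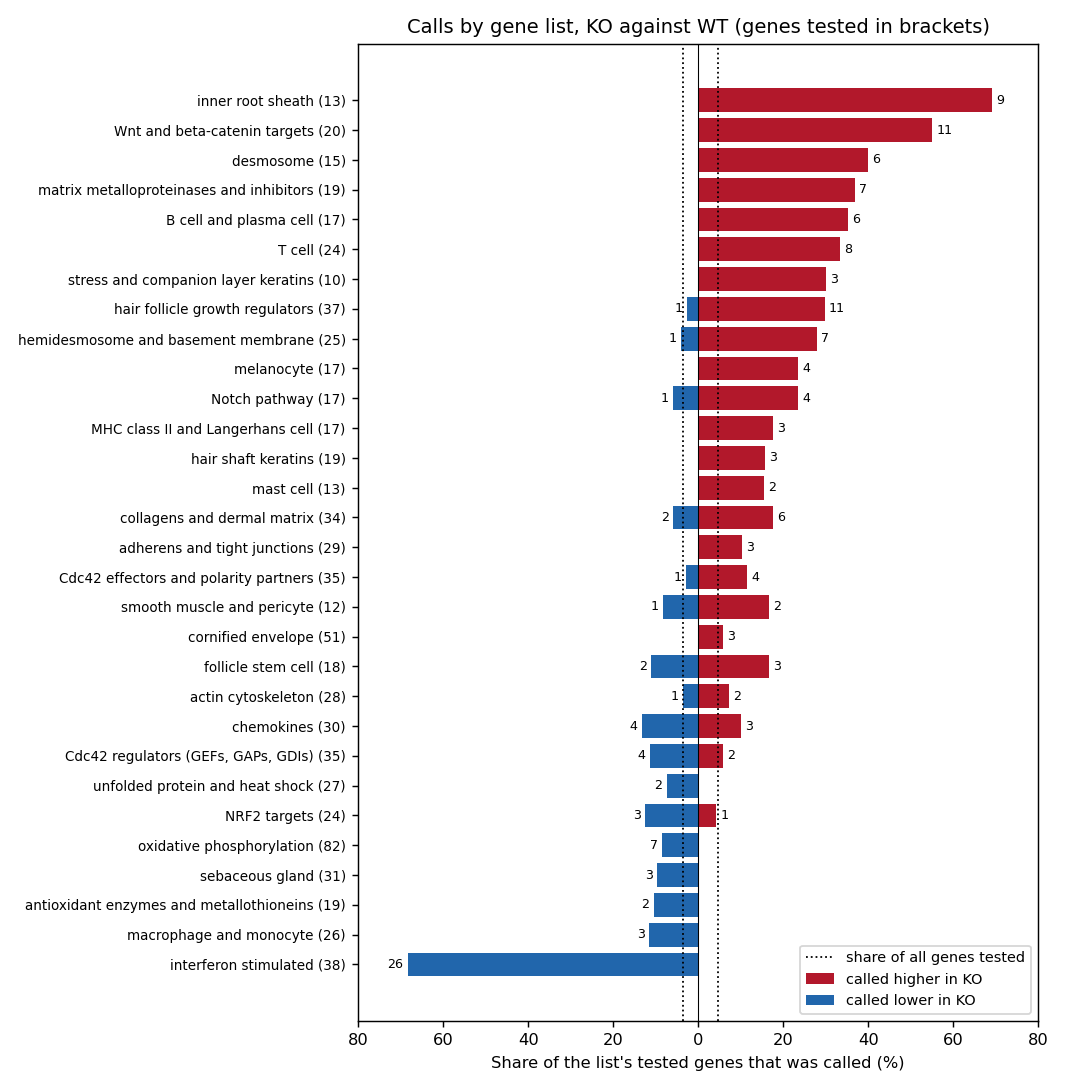
Share (%) of the tested genes of each gene list that was called higher (red, right) or lower (blue, left) in KO, for the lists reported with at least 2 calls; figures at the bars are numbers of genes and dotted lines mark the 4.61% and 3.58% of all genes tested. Follicle, Wnt target, metalloproteinase and desmosome lists lie to the right, and the interferon-stimulated list, with 26 of 38 genes, lies furthest to the left.

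The interferon-stimulated genes were the list with the most falls. Type I and type II interferons switch on these genes through JAK kinases. The genes encode antiviral proteins, and IRF7 in turn drives the production of interferon. Of 38 such genes tested, 26 were called lower in KO and 0 higher, against 3.58% of all genes, and for 34 each KO library was lower than each WT library. The median log2 fold change over the 38 was -2.31. The count was 23 without WT 1, WT 3, KO 1 or KO 3 and 24 without WT 2 or KO 2, and 23 of the 26 genes were called throughout.

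*Irf7*, the factor that amplifies interferon production, stood at 715, 259.7 and 260.4 CPM in WT and 18.4, 17.3 and 16 CPM in KO, a fall of 23.9-fold (log2 fold change -4.58, SE 0.44, edgeR adjusted p = 0.000562). WT 1 was the highest library, and even the lowest WT library was far above every KO library. *Ifit1*, *Ifit2* and *Ifit3* encode proteins that bind viral RNA. *Ifit1* was at 124, 68.8 and 88.4 CPM in WT and 4.42, 8.07 and 6.43 CPM in KO (log2 fold change -3.89, SE 0.35, edgeR adjusted p = 0.000406). *Ifit3* was at 267, 127 and 164 CPM in WT and 9.4, 10.3 and 14.9 CPM in KO (log2 fold change -4.01, SE 0.31, edgeR adjusted p = 0.000337). Neither gene had a KO library near the WT range, and *Ifit3b*, a near-identical neighbour that can share reads with *Ifit3*, fell by 3.86 on the log2 scale.

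*Isg15*, a ubiquitin-like protein attached to other proteins during the antiviral response, stood at 128, 76.1 and 67.5 CPM in WT and 6.0, 7.55 and 4.27 CPM in KO (log2 fold change -3.93, SE 0.32, edgeR adjusted p = 0.000337). *Usp18*, the protease that removes it, fell by 3.17 on the log2 scale. The list holds 5 genes of the 2'-5' oligoadenylate synthetase family, whose products activate RNase L. *Oas1a*, *Oas2*, *Oas3*, *Oasl1* and *Oasl2* had log2 fold changes of -3.36, -2.75, -4.08, -4.39 and -3.52, and all were called throughout. *Bst2* (tetherin, which holds budding virus at the cell surface) was at 409, 220.5 and 225 CPM in WT and 26.7, 32.3 and 32.8 CPM in KO (log2 fold change -3.22, SE 0.26, edgeR adjusted p = 0.000337). *Mx1* and *Mx2*, dynamin-like GTPases against viruses, fell by 3.44 and 3.07 on the log2 scale. The RNA sensors *Ddx58* (RIG-I) and *Ifih1* (MDA5) fell less, by 1.56 and 1.61, and so did the guanylate-binding proteins *Gbp2*, *Gbp3*, *Gbp5* and *Gbp7*, by 1.27 to 2.16. Of these 4, *Gbp5* and *Gbp7* were called in 0 of the 6 fits without 1 library.

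Among the 12 list members not called were the class I antigen presentation genes of the list. Of the 12 largest falls (mean level 10 CPM or more), 7 were of genes outside the list, 1 of them the muscle gene *Myh4* described below. *Slfn4*, a Schlafen gene of myeloid cells, was at 341, 167 and 74.5 CPM in WT and 3.57, 19.3 and 5.9 CPM in KO. *Ifi27l2a*, an interferon-inducible gene, was at 562, 595 and 480.3 CPM in WT and 41, 24 and 23 CPM in KO. *Ms4a4c*, a membrane protein of the MS4A family, was at 200.3, 68.5 and 54.4 CPM in WT and 3.83, 7.15 and 7.44 CPM in KO. Neither group had a library inside the range of the other for these 3 genes. *Ifi213*, of the interferon-inducible Ifi200 family, was at 59.8, 25.2 and 30.4 CPM in WT and 1.32, 2.09 and 3.39 CPM in KO, and *Ifi206*, of the same family, at 32.5, 13.4 and 18.1 CPM in WT and 0.851, 1.77 and 1.23 CPM in KO. *Prg4* (lubricin, a lubricating proteoglycan of joints) was at 81.1, 141 and 85.5 CPM in WT and 8.68, 8.24 and 2.16 CPM in KO. *Rtp4*, a receptor-transporting protein inducible by interferon, had the smallest p of all falls and was at 119.6, 101 and 87.8 CPM in WT and 9.44, 11.3 and 11.8 CPM in KO (log2 fold change -3.24, SE 0.21, edgeR adjusted p = 0.000173). *Phf11d*, also among the 5 smallest p of the falls, was at 87.5, 45.6 and 52.1 CPM in WT and 7.44, 9.6 and 8.54 CPM in KO. These 8 genes, *Myh4* not counted, were called throughout, with no KO library inside the WT range.

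The start regions of these genes were read for a short sequence. Interferon-responsive promoters commonly carry an interferon-stimulated response element (ISRE), with 2 GAAA cores a pair of bases apart, and so GAAANNGAAA was searched on both strands (on the other strand it reads TTTCNNTTTC) from 250 bases before to 50 bases after each RefSeq gene start on GRCm38.p6. Overlapping matches were counted as 1 window. It was present in 3.44% of all 32851 windows, in 2.23% of the windows of genes called higher in KO and in 11.1% of those of genes called lower. Of the 38 listed genes 29 had a window, and 17 of these held a match, as did 15 of the 21 called members with a window. The motif and these sets were chosen after the values were seen, no test was run, and a match is a description of letters, not of binding. The 120 bases just before the start, in the direction of transcription, are shown for 3 called genes with a match, in capitals, and for *Irf7*, which fell most in the list and has no match in its window.

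Ifit1 (chr19:34640769-34640888, plus strand): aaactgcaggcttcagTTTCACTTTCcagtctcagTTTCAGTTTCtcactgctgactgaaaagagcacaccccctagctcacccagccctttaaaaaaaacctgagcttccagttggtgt
Isg15 (chr4:156200819-156200938, minus strand): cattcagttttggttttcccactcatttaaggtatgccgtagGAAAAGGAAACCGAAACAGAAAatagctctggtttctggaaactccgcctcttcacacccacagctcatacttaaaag
Oas3 (chr5:120777660-120777779, minus strand): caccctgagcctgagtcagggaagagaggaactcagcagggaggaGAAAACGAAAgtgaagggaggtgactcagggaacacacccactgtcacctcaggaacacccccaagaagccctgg
Irf7 (chr7:141266425-141266544, minus strand): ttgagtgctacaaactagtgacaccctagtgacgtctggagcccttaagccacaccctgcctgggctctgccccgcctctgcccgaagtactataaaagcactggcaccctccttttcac

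The 2 matches of *Ifit1* begin 104 and 85 bases before the start. Those of *Isg15* begin 78, 72 and 66 bases before it and overlap, and that of *Oas3* begins 75 bases before the start.

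**Figure D3:**
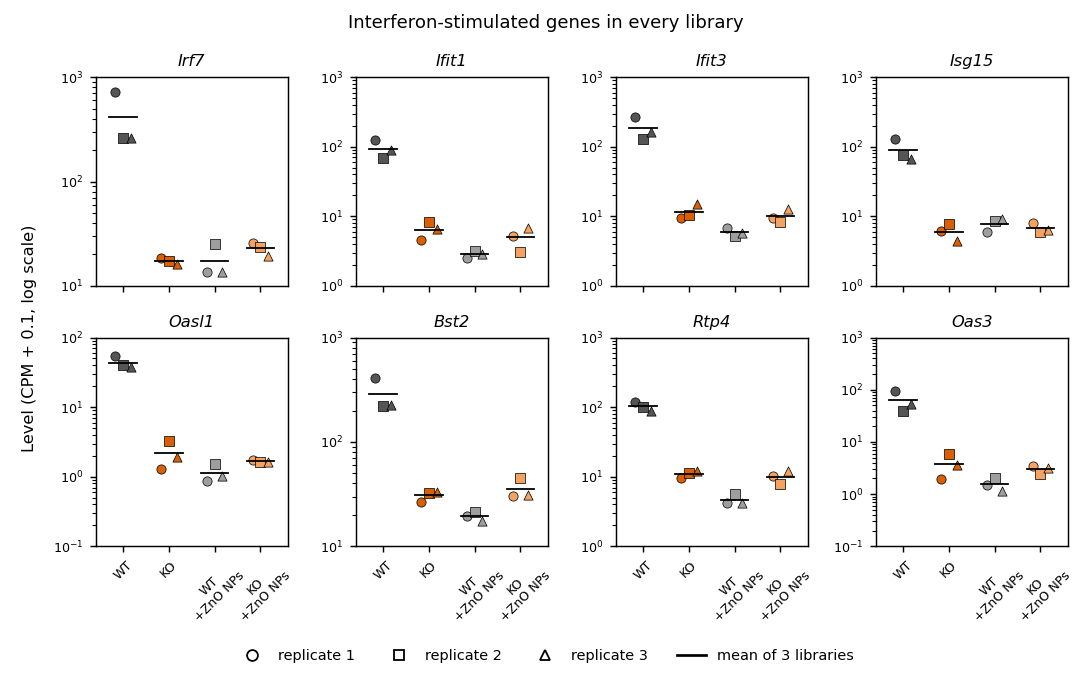
Levels of 8 interferon-linked genes in each library (CPM + 0.1, log scale), by group, with the mean of the 3 libraries as a bar. The WT libraries stand above KO in every panel, with *Irf7* between 260 and 715 CPM against 16 to 18.4 CPM, and no library of the ZnO NP groups reaches the WT range.

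For KO+ZnO NPs over WT+ZnO NPs, as labelled, the median log2 fold change of the 38 genes was 0.41, and 0 were called by edgeR in either direction, with 14 at an unadjusted p below 0.05. The test of the difference between the 2 comparisons (the interaction) called 30 of the 38, against 8.68% of all genes tested. *Irf7* stood at 13.4, 25.4 and 13.4 CPM in WT+ZnO NPs and 25.7, 23.6 and 19.2 CPM in KO+ZnO NPs, and *Ifit1* at 2.4, 3.06 and 2.81 CPM in WT+ZnO NPs and 5.1, 2.92 and 6.79 CPM in KO+ZnO NPs. For both genes all 6 of these libraries lay below the WT libraries without ZnO NPs.

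Many interferon-stimulated genes are also made by macrophages, whose markers were read beside them. Of 26 macrophage and monocyte genes, 3 were called lower, against 3.58% of all genes, and 0 higher, with a median log2 fold change of -0.89, and the summed level of the list was 7467 to 9058 CPM in WT and 3503 to 6485 CPM in KO. The calls were 1 without WT 2 or KO 3, 2 without WT 3 or KO 1 and 3 without WT 1 or KO 2. The share of the interferon result that goes with these cells was not tested. *Fcgr1*, the high-affinity IgG receptor CD64 and itself inducible by interferon, was at 221, 170.1 and 95.5 CPM in WT and 12.8, 22 and 16.4 CPM in KO (log2 fold change -3.25, SE 0.33, edgeR adjusted p = 0.000642) and was called throughout. *Folr2*, of tissue-resident macrophages, was at 41.4, 99.8 and 72.8 CPM in WT and 15.2, 13.2 and 10.6 CPM in KO (log2 fold change -2.46, SE 0.47, edgeR adjusted p = 0.0138), and was called in 4 of the 6 fits. The general markers *Adgre1* (F4/80), at 267, 359 and 252 CPM in WT and 88.1, 149 and 139 CPM in KO, and *Cd68*, at 264, 269 and 264 CPM in WT and 60.6, 194 and 129.6 CPM in KO, did not pass the test (edgeR adjusted p = 0.0916 and 0.121), although their KO libraries were the 3 lowest. *Csf1r*, the receptor on which macrophages depend, overlapped between the groups at 312, 403 and 390.3 CPM in WT and 234, 398 and 282 CPM in KO.

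Of 30 chemokine genes 4 were called lower and 3 higher, where 3.58% and 4.61% of all genes were. *Ccl6*, a CC chemokine of macrophages, was at 1115, 1485 and 571 CPM in WT and 109, 212 and 122 CPM in KO (log2 fold change -2.84, SE 0.58, edgeR adjusted p = 0.0174, 3 of 6 fits), and *Ccl9* and *Pf4* fell by 2.29 and 2.33 on the log2 scale. *Ppbp*, a platelet chemokine, fell by 3.39. The number called lower was 0 without WT 2, KO 1 or KO 3 and 3 without WT 1, WT 3 or KO 2. Those that rose were *Ccl17*, *Cxcl16* and *Cx3cl1*, called in 5, 3 and 0 of the 6 fits. Rises numbered 2 without WT 1, KO 1 or KO 3, 1 without WT 3 or KO 2 and 0 without WT 2. *Ccl17*, which attracts CCR4-bearing T cells, was low in both groups, at 0.881, 0.456 and 0.255 CPM in WT and 2.34, 6.91 and 5.42 CPM in KO.

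Hair follicle genes had the largest fitted rises among called genes. The growing follicle of the anagen phase builds an inner root sheath, whose cells make the keratins K25 to K28 and K71 to K74 and trichohyalin, around a hair shaft of hard keratins and keratin-associated proteins, whereas the resting follicle makes little of them. Of 13 inner root sheath genes 9 were called higher, against 4.61% of all genes, and 0 lower, with a median log2 fold change of 8.62. The summed level of the list was 67.4 to 75.3 CPM in WT, but 13210, 340 and 3890 CPM in KO 1, KO 2 and KO 3. Of the sum in KO 2, 237 CPM came from *Gjb2* alone. *Krt71* was at 0.42, 0 and 0.17 CPM in WT and 3557, 0.201 and 1022 CPM in KO. *Krt27* was at 0.336, 0.14 and 0.297 CPM in WT and 1459, 2.25 and 336 CPM in KO and *Krt25* at 0.336, 0.0351 and 0.128 CPM in WT and 1990.0, 0.121 and 697 CPM in KO. *Krt71* and *Krt25* in KO 2 were inside the WT range, whereas *Krt27* in KO 2 was above it.

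*Tchh* (trichohyalin, which binds the keratin filaments of the sheath) was at 4.95, 3.58 and 5.82 CPM in WT and 4415, 11.6 and 1207 CPM in KO (log2 fold change 8.62, SE 2.09, edgeR adjusted p = 0.0335). Its call stood in 1 of the 6 fits without 1 library, that of *Krt71* also in 1, and that of *Krt27* in 3. The number of inner root sheath genes called was 3 without WT 1, 1 without WT 2, 3 without WT 3, 4 without KO 1, 12 without KO 2 and 4 without KO 3. *Gjb2* (connexin 26, a gap junction protein of several epithelia) differed from *Tchh*, *Krt71*, *Krt27* and *Krt25* in that it was high in all KO libraries. It was at 20.5, 29.4 and 24.1 CPM in WT and 443, 237 and 209 CPM in KO (log2 fold change 3.59, SE 0.64, edgeR adjusted p = 0.00976), and it alone of the list was called throughout. For 7 of the 13 listed genes every KO library was above every WT library, against 18.6% of all genes.

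Of 19 hair shaft genes 3 were called higher (*Krt35*, *S100a3* and *Padi3*), against 4.61% of all genes, and 0 lower. The count was 1 without KO 1 or KO 3, 0 without WT 1, WT 2 or WT 3 and 10 without KO 2. *Krt35*, an early keratin of the hair cortex, was at 0.168, 0.0702 and 0.212 CPM in WT and 144, 0.201 and 82.3 CPM in KO (log2 fold change 8.96, SE 1.95, edgeR adjusted p = 0.0221, 3 of 6 fits). Of 54 keratin-associated protein genes, near-identical families whose reads can be shared, 0 were called by edgeR, or 4 without KO 2 and 0 without KO 1, while 45 had an unadjusted p below 0.05 and all 54 a positive log2 fold change. DESeq2 called 42 in the fit of all 12 libraries and 1 in that of the 6 libraries compared. Their summed level was 1.12 to 2.18 CPM in WT and 4376, 1.77 and 212 CPM in the KO libraries, so that KO 2 was again at the level of WT.

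**Figure D4:**
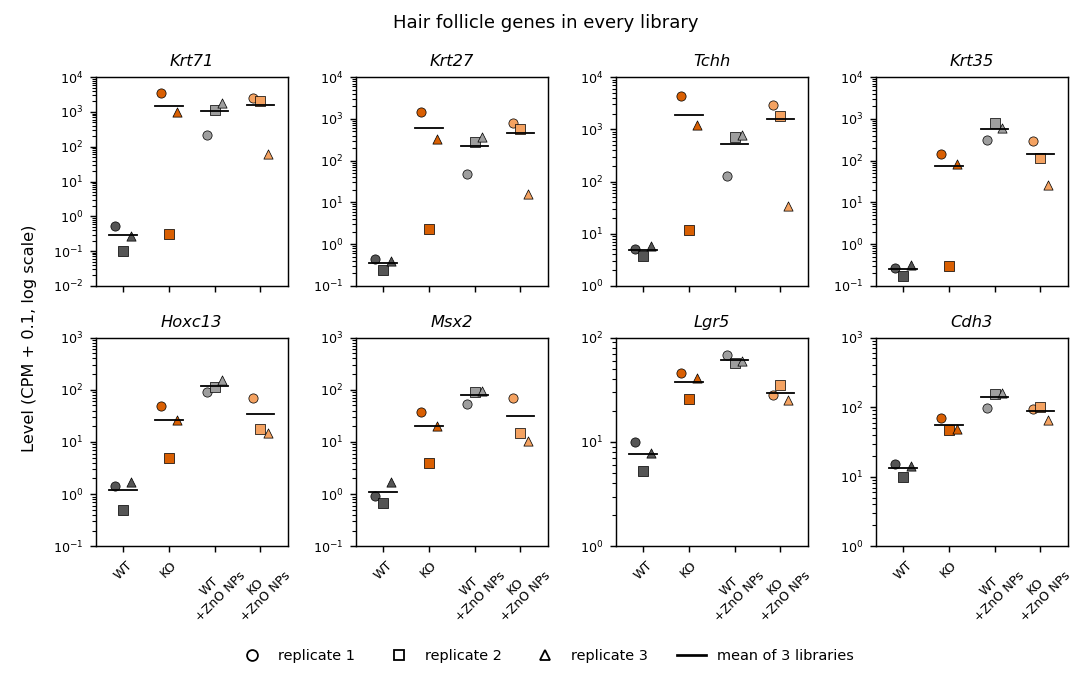
Levels of 8 hair follicle genes in each library (CPM + 0.1, log scale), by group, with the mean of the 3 libraries as a bar. For *Krt71*, *Krt27*, *Tchh* and *Krt35*, KO 2 (square) lies close to WT while KO 1 and KO 3 are far higher, and for *Lgr5* and *Cdh3* all 3 KO libraries are above WT.

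The inner root sheath list was higher in both ZnO NP groups than in WT without ZnO NPs, with sums of 1198 to 5866 CPM in WT+ZnO NPs and 368 to 9557 CPM in KO+ZnO NPs, so that WT without ZnO NPs was the only group in which all 3 libraries were low.

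Of 37 regulators of follicle growth 11 were called higher and 1 lower (*Fgf7*), against 4.61% and 3.58% of all genes, with a median log2 fold change of 1.02. *Hoxc13*, the homeobox gene needed for hair keratin expression, was at 1.34, 0.386 and 1.57 CPM in WT and 48.5, 4.78 and 26.3 CPM in KO (log2 fold change 4.61, SE 0.93, edgeR adjusted p = 0.0161, 3 of 6 fits). *Msx2*, a homeobox gene of the matrix, was at 0.839, 0.562 and 1.61 CPM in WT and 36.7, 3.82 and 20.3 CPM in KO (log2 fold change 4.34, SE 0.96, edgeR adjusted p = 0.0233, 1 of 6 fits). *Lef1*, the partner of beta-catenin on DNA, was at 1.55, 0.562 and 2.0 CPM in WT and 9.87, 2.45 and 10.7 CPM in KO (log2 fold change 2.49, SE 0.64, edgeR adjusted p = 0.0405, 1 of 6 fits). In all 3 genes KO 2 was the lowest KO library and still above every WT library. *Inhba*, a subunit of activin, was even across KO, at 11.2, 9.79 and 9.14 CPM in WT and 43.9, 54.2 and 53.6 CPM in KO (log2 fold change 2.33, SE 0.32, edgeR adjusted p = 0.00264), and was the only member called throughout. The number called higher was 3 without WT 1, 1 without WT 2, 2 without WT 3, 4 without KO 1, 15 without KO 2 and 5 without KO 3, and the fall of *Fgf7* was called without WT 1 but in no other of these fits.

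Targets of Wnt and beta-catenin signalling, the pathway that starts follicle growth, were read next. Of 20 such genes 11 were called higher and 0 lower, against 4.61% of all genes, with a median log2 fold change of 0.93. *Lgr5*, a receptor for R-spondin and a marker of follicle stem cells, was at 9.78, 5.16 and 7.65 CPM in WT and 46, 25.7 and 41.3 CPM in KO (log2 fold change 2.32, SE 0.27, edgeR adjusted p = 0.00124). *Nkd2*, a feedback inhibitor, was at 17.6, 14 and 16.1 CPM in WT and 89.4, 54.7 and 62.9 CPM in KO (log2 fold change 2.12, SE 0.31, edgeR adjusted p = 0.00371). Both were called throughout and both separated all 3 KO libraries, KO 2 included. *Wif1*, a secreted Wnt inhibitor, was at 8.06, 3.65 and 4.84 CPM in WT and 14.4, 17.2 and 34.5 CPM in KO (log2 fold change 2.0, SE 0.45, edgeR adjusted p = 0.0253, 3 of 6 fits), and the ubiquitin ligases *Rnf43* and *Znrf3*, which remove Wnt receptors, rose by 1.26 and 0.77 on the log2 scale. *Axin2*, the most general of these targets, missed the threshold at 25.3, 20.8 and 29.7 CPM in WT and 41, 49 and 49.1 CPM in KO (log2 fold change 0.88, SE 0.25, edgeR adjusted p = 0.0557). The count of 11 became 3 without WT 2 or WT 3, 5 without WT 1 or KO 3, 6 without KO 1 and 8 without KO 2. *Lgr5*, *Lef1* and *Tcf7* are also in other lists above or below.

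The Notch pathway, which guides the differentiation of the follicle and the upper epidermis, had 4 genes called higher and 1 lower of 17, against 4.61% and 3.58% of all genes. The ligand *Jag1* was at 46.6, 53.1 and 49.5 CPM in WT and 153, 119 and 119 CPM in KO (log2 fold change 1.39, SE 0.22, edgeR adjusted p = 0.00605). The target *Heyl* was at 6.09, 8.18 and 8.97 CPM in WT and 42, 24.6 and 41.7 CPM in KO (log2 fold change 2.22, SE 0.37, edgeR adjusted p = 0.00705). Both were called throughout. The receptor *Notch1* and the target *Hes1* rose by 0.75 and 0.71 on the log2 scale, but in 0 of the 6 fits, and *Rbpj*, the DNA-binding partner of the cleaved receptor, fell by 0.74. Rises numbered 3 without KO 3 and 2 without any other library, KO 1 included, and *Rbpj* was called without WT 1 or KO 2 only. *Cdh3* (P-cadherin), an adherens junction protein of the follicle matrix, was at 15.2, 9.79 and 14.3 CPM in WT and 69.4, 46.2 and 48.1 CPM in KO (log2 fold change 2.06, SE 0.27, edgeR adjusted p = 0.00185) and was called throughout.

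Of 18 follicle stem cell genes 3 were called higher and 2 lower, where 4.61% and 3.58% of all genes were. *Cd34*, which marks the bulge but also vessels and fibroblasts, was at 314, 375 and 464 CPM in WT and 157, 143 and 191 CPM in KO (log2 fold change -1.23, SE 0.28, edgeR adjusted p = 0.0252, 1 of 6 fits), while *Lgr5* rose as given above. *Dkk3*, a secreted protein of the Dickkopf family, was at 38.4, 21.4 and 40.8 CPM in WT and 154, 167 and 166 CPM in KO (log2 fold change 2.28, SE 0.39, edgeR adjusted p = 0.00783) and was called throughout. *Il31ra*, a subunit of the interleukin 31 receptor, fell by 1.49 on the log2 scale and *Postn*, which is also a matrix gene, rose by 2.02, so members of this list moved in both directions. The number called higher was 3 without WT 1 or KO 1, 4 without KO 2 and 2 without any other library, and the number called lower 2 without WT 1 and 1 without any other, KO 1 included. Melanocytes of the hair bulb make pigment in anagen, and 4 of 17 melanocyte genes were called higher, against 4.61% of all genes (7 without KO 2, and 1 or 2 without any other library). *Mlana* was at 0.42, 0.421 and 0.595 CPM in WT and 6.25, 2.21 and 5.06 CPM in KO (log2 fold change 3.23, SE 0.56, edgeR adjusted p = 0.00866, 5 of 6 fits). *Tyr*, the enzyme that starts melanin synthesis, was at 1.18, 0.737 and 1.87 CPM in WT and 5.32, 2.25 and 12.5 CPM in KO (log2 fold change 2.41, SE 0.64, edgeR adjusted p = 0.0435, 1 of 6 fits). *Kit*, the receptor of melanocytes and also of mast cells, was at 14.8, 8.35 and 11.5 CPM in WT and 43.7, 59.98 and 68.2 CPM in KO (log2 fold change 2.31, SE 0.36, edgeR adjusted p = 0.00515) and was called throughout.

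Keratinocytes rest on a membrane of laminins, to which hemidesmosomes attach from above and anchoring fibrils of collagen VII from below. Of 25 hemidesmosome and basement membrane genes 7 were called higher and 1 lower, against 4.61% and 3.58% of all genes, with a median log2 fold change of 0.09. *Col7a1*, the collagen of the anchoring fibrils, was at 39.7, 18 and 32.4 CPM in WT and 609.6, 591 and 512 CPM in KO, a rise of 19-fold (log2 fold change 4.25, SE 0.37, edgeR adjusted p = 0.000406). *Lama3*, a laminin chain of this membrane, was at 25.8, 22.3 and 30.7 CPM in WT and 129, 149.9 and 100.4 CPM in KO (log2 fold change 2.27, SE 0.30, edgeR adjusted p = 0.00203). All KO libraries were well above all WT libraries for these 2 genes, which were called throughout, whereas the laminin gene *Lamb3* rose by 1.30 on the log2 scale and was called in 1 of the 6 fits.

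The hemidesmosome proteins integrin beta-4 and collagen XVII link the membrane to keratin filaments. *Itgb4* was at 96.9, 96.2 and 92.6 CPM in WT and 144, 149 and 95.5 CPM in KO and *Col17a1* at 450.3, 329.7 and 398 CPM in WT and 626, 619 and 338 CPM in KO, and both overlapped between the groups without a call. *Fermt1* (kindlin-1, an activator of integrins) was at 9.69, 6.91 and 12.4 CPM in WT and 47.4, 39.4 and 28.9 CPM in KO (log2 fold change 2.0, SE 0.24, edgeR adjusted p = 0.00128). *Frem2*, of the Fraser complex of the basement membrane, was at 5.62, 2.81 and 5.86 CPM in WT and 12.9, 17.2 and 17.4 CPM in KO (log2 fold change 1.74, SE 0.30, edgeR adjusted p = 0.00805). Both were called throughout. *Cd151*, a tetraspanin that stabilizes hemidesmosomes, was the 1 gene that fell, by 0.65 on the log2 scale, a call that stood without WT 1, WT 3 or KO 1 only. The number called higher was 5 or 6 in each of the 6 fits without 1 library.

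Desmosomes, which join keratinocytes to each other, had 6 of 15 genes called higher, against 4.61% of all genes, and 0 lower (median log2 fold change 0.96). *Dsp* (desmoplakin) was at 849, 644 and 759 CPM in WT and 1767, 2011 and 1182 CPM in KO (log2 fold change 1.14, SE 0.31, edgeR adjusted p = 0.0467, 1 of 6 fits). *Dsg3*, a desmoglein of the basal layers, was at 45.2, 47.4 and 48.5 CPM in WT and 142, 132 and 93.5 CPM in KO (log2 fold change 1.38, SE 0.27, edgeR adjusted p = 0.014, 5 of 6 fits). *Dsg2*, at 18.3, 9.76 and 14.1 CPM in WT and 43.7, 28.8 and 31.5 CPM in KO (log2 fold change 1.30, SE 0.23, edgeR adjusted p = 0.00961), was called throughout. The count was 2 without WT 1, WT 3 or KO 1, 1 without WT 2, 3 without KO 2 and 7 without KO 3. Of 29 genes of adherens and tight junctions 3 were called higher (*Cdh1*, *Cdh3* and *Patj*), against the same 4.61%, and 0 lower. *Cdh1* (E-cadherin) was at 152, 118 and 149 CPM in WT and 297, 387 and 235 CPM in KO (log2 fold change 1.14, SE 0.22, edgeR adjusted p = 0.0149, 5 of 6 fits). *Patj*, of the Crumbs polarity complex, was at 12.2, 9.69 and 11.9 CPM in WT and 30.1, 20.3 and 21 CPM in KO (log2 fold change 1.08, SE 0.17, edgeR adjusted p = 0.00527) and was called throughout. The number called was 2 without WT 2, 4 without KO 3 and 3 without any other library, KO 1 included.

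These epithelial genes stood beside a difference in general keratinocyte markers. The summed level of 10 keratins of basal and interfollicular epidermis was 8526 to 12456 CPM in WT and 12963 to 23963 CPM in KO, without overlap, although 0 of the 10 were called by edgeR, with 4 at an unadjusted p below 0.05, and DESeq2 called 4 or 5 higher in its 2 fits. *Krt5*, whose promoter drives Cre in these mice, was at 1838, 1389.6 and 1909.8 CPM in WT and 3247, 3422 and 2078 CPM in KO (log2 fold change 0.77, SE 0.27, edgeR adjusted p = 0.108). The part of the keratinocyte share of the RNA in the epithelial rises was not tested.

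Matrix metalloproteinases cut collagen and other matrix. Of 19 genes of metalloproteinases, related proteases and their inhibitors, 7 were called higher and 0 lower, against 4.61% of all genes, and *Adamts4*, an aggrecanase, was the 1 of the 7 outside the Mmp genes. *Mmp13*, a collagenase, was at 3.99, 3.47 and 2.8 CPM in WT and 296, 321 and 134 CPM in KO, a rise of 72.9-fold (log2 fold change 6.19, SE 0.76, edgeR adjusted p = 0.00151). *Mmp12*, the elastase of macrophages, was at 14.9, 13.4 and 10.9 CPM in WT and 297, 1388 and 1126 CPM in KO (log2 fold change 6.16, SE 0.78, edgeR adjusted p = 0.00166). *Mmp9*, a gelatinase, was at 36.5, 59.9 and 29.9 CPM in WT and 614, 899 and 415 CPM in KO (log2 fold change 3.93, SE 0.70, edgeR adjusted p = 0.00995). *Mmp10*, a stromelysin, was low in WT, at 0.21, 0.316 and 0.212 CPM in WT and 12.6, 17 and 8.67 CPM in KO (log2 fold change 5.66, SE 0.93, edgeR adjusted p = 0.00657). *Mmp14*, the membrane-bound activator, was at 291, 279 and 375 CPM in WT and 845, 820.0 and 844 CPM in KO (log2 fold change 1.41, SE 0.22, edgeR adjusted p = 0.00448). These 5 were called throughout and the list kept 5 to 7 calls in every fit without 1 library. The inhibitor *Timp1*, at 27.8, 93.2 and 45.4 CPM in WT and 51.2, 51.7 and 40.2 CPM in KO, overlapped between the groups.

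Of 34 collagen and matrix genes of the dermis 6 were called higher and 2 lower, against 4.61% and 3.58% of all genes, and the summed level was 16356 to 25500 CPM in WT and 40736 to 60228 CPM in KO. *Col12a1*, which links collagen fibrils, was at 68.1, 151 and 92.9 CPM in WT and 759, 895 and 877 CPM in KO (log2 fold change 3.02, SE 0.49, edgeR adjusted p = 0.00607) and was called throughout. *Postn* (periostin, a matrix protein of remodelling skin) was at 1015, 489 and 924 CPM in WT and 2636, 3436 and 3797 CPM in KO (log2 fold change 2.02, SE 0.43, edgeR adjusted p = 0.0193, 3 of 6 fits). The main fibrillar collagens *Col1a1*, at 2221, 996 and 2876 CPM in WT and 7535, 5895 and 10830.0 CPM in KO, and *Col3a1*, at 2697, 2054 and 5185 CPM in WT and 8868, 8316 and 12807 CPM in KO, separated the groups but missed the threshold (edgeR adjusted p = 0.064 and 0.096). The proteoglycan *Dcn* (decorin) did not separate them, at 1801, 2208 and 2244 CPM in WT and 1675, 1755 and 1970.3 CPM in KO, and *Tnxb* (tenascin X) fell by 0.83 on the log2 scale. The number called higher was 1 without WT 2 or KO 3, 2 without WT 1 or WT 3 and 3 without KO 1 or KO 2, and the number called lower 1 without KO 1 and 0 without any other library.

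Further genes with the largest rises or smallest p belonged to no list. *Prss35*, a serine protease-like protein, was at 0.629, 0.0702 and 0.51 CPM in WT and 64.1, 95.1 and 148 CPM in KO, a fitted rise of 258-fold (log2 fold change 8.01, SE 0.75, edgeR adjusted p = 0.000537). *Matn4* (matrilin 4, a cartilage-type matrix protein) was at 0.923, 0.526 and 0.51 CPM in WT and 39.9, 53.3 and 58.8 CPM in KO (log2 fold change 6.27, SE 0.66, edgeR adjusted p = 0.000759). *Megf6* was at 23.4, 11.4 and 20.4 CPM in WT and 109, 155 and 173 CPM in KO. *Mdga1* was at 3.78, 2.39 and 3.7 CPM in WT and 19.5, 17.6 and 19.7 CPM in KO. *Ccn4* (WISP1, a matricellular protein induced by Wnt) was at 8.02, 4.42 and 5.78 CPM in WT and 52.1, 53.6 and 66.5 CPM in KO (log2 fold change 3.24, SE 0.32, edgeR adjusted p = 0.000599). These 5 were called throughout, and in all of them every KO library lay far above every WT library. Fitted rises larger than these were those of *Crnn* (cornulin, a protein of squamous epithelia) and *Prr9*, also of no list, for which KO 2 lay far below KO 1 and KO 3. *Crnn* was at 0.126, 0.175 and 0.085 CPM in WT and 178, 1.93 and 37.2 CPM in KO (log2 fold change 9.05, SE 2.19, edgeR adjusted p = 0.0328, 1 of 6 fits). *Prr9* was at 1.89, 0.562 and 0.892 CPM in WT and 837, 8.4 and 167 CPM in KO (log2 fold change 8.25, SE 2.08, edgeR adjusted p = 0.0379, 1 of 6 fits).

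Of 24 T cell genes 8 were called higher, against 4.61% of all genes, and 0 lower, and all 24 had a positive log2 fold change (median 1.11). *Foxp3*, the factor of regulatory T cells, was at 1.3, 0.632 and 0.467 CPM in WT and 3.53, 8.88 and 10.04 CPM in KO (log2 fold change 3.22, SE 0.57, edgeR adjusted p = 0.00918) and was called in 5 of the 6 fits. *Cd4* was at 6.76, 4.28 and 3.99 CPM in WT and 8.93, 37.2 and 27.1 CPM in KO (log2 fold change 2.28, SE 0.60, edgeR adjusted p = 0.0433, 1 of 6 fits), with KO 1 close to WT. *Cd3e* and *Cd8a*, which mark T cells in general and cytotoxic ones, overlapped between the groups, at 6.13, 2.04 and 3.91 CPM in WT and 5.06, 8.76 and 7.53 CPM in KO, and at 2.94, 1.02 and 1.32 CPM in WT and 2.68, 4.54 and 4.93 CPM in KO. *Gata3*, also in the inner root sheath list, is 1 of the 8. The count was 3 without WT 1, 0 without WT 2, 1 without WT 3 or KO 2, 2 without KO 3 and 5 without KO 1.

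Of 17 MHC class II and Langerhans cell genes 3 were called higher, against 4.61% of all genes, or 1 or 0 without any 1 library, a number near that share, with a median log2 fold change of 0.98. *Cd74*, the invariant chain, was at 822, 482 and 677 CPM in WT and 1102, 1534 and 1564 CPM in KO (log2 fold change 1.08, SE 0.29, edgeR adjusted p = 0.0475, 0 of 6 fits). *Itgax* (CD11c) was at 16.7, 13.7 and 11.6 CPM in WT and 40.9, 191 and 156 CPM in KO (log2 fold change 3.20, SE 0.56, edgeR adjusted p = 0.00917), called in 5 of the 6 fits, and *Cd207* (langerin), which defines Langerhans cells, overlapped at 35.5, 11.7 and 16.3 CPM in WT and 32.1, 41.3 and 38.4 CPM in KO. *Fcer1a*, the IgE receptor of mast cells, was at 5.04, 1.61 and 3.06 CPM in WT and 21.6, 45.6 and 24.6 CPM in KO (log2 fold change 3.24, SE 0.66, edgeR adjusted p = 0.0167, 4 of 6 fits), while the mast cell proteases *Cma1* and *Cpa3* were not called (edgeR adjusted p = 0.504 and 0.331).

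Of 17 B and plasma cell genes 6 were called higher, against 4.61% of all genes, among them constant-region genes that share sequence, so reads may be split between them. *Igha* (the heavy chain of IgA) was at 26.2, 5.69 and 16.4 CPM in WT and 130.1, 707 and 1219 CPM in KO (log2 fold change 5.41, SE 1.02, edgeR adjusted p = 0.0126, 4 of 6 fits). *Ighg1* was at 1.05, 0.632 and 1.32 CPM in WT and 7.1, 90.8 and 597 CPM in KO (log2 fold change 7.86, SE 1.57, edgeR adjusted p = 0.0152, 3 of 6 fits). KO 1 was the lowest and KO 3 the highest of the KO libraries in both. *Cd79a*, the B cell receptor subunit, overlapped between the groups, at 0.713, 1.72 and 0.68 CPM in WT and 0.553, 1.81 and 3.17 CPM in KO. The count of 6 became 0 without WT 2 or WT 3, 1 without WT 1, 3 without KO 2 or KO 3 and 7 without KO 1.

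Of 51 cornified envelope genes, of the last step of epidermal differentiation, 3 were called higher, near the 4.61% of all genes. They were *Sprr2a1*, *Sprr2a2* and *Sprr2a3*, which are nearly identical copies that can share reads. The number called was 2 without WT 1 or KO 1 and 1 without any other library, and *Sprr2a1* and *Sprr2a2* were each called in 1 of the 6 fits. *Sprr2a3* was at 8.98, 4.28 and 11.3 CPM in WT and 121, 309 and 71.9 CPM in KO (log2 fold change 4.35, SE 0.65, edgeR adjusted p = 0.00414) and was called throughout. *Flg* (filaggrin) was at 329.9, 107 and 300.0 CPM in WT and 455, 1141 and 691 CPM in KO, and *Lor* (loricrin) at 2085, 972 and 1337 CPM in WT and 1787, 3103 and 1205 CPM in KO, without a call. Of 25 genes of barrier lipids 0 were called by edgeR and 0 had an unadjusted p below 0.05, with 1 call by DESeq2 in the 6 libraries compared, and the 3 read by rule, *Alox12b*, *Aloxe3* and *Cers3*, overlapped between the groups. The stress and companion layer keratins had 3 genes called higher of 10, *Krt17*, *Krt7* and *Krt75*, against 4.61% of all genes, or 1 without WT 2 and 2 or 3 without any other library. *Krt17*, made by the outer root sheath and by activated epidermis, was at 517, 325 and 446 CPM in WT and 2025, 1516 and 1059 CPM in KO (log2 fold change 1.84, SE 0.32, edgeR adjusted p = 0.00896, 5 of 6 fits). The related stress keratins *Krt6a*, at 179.6, 463 and 379 CPM in WT and 1539, 1874 and 1093 CPM in KO, and *Krt16*, at 183, 387 and 250.4 CPM in WT and 612, 1664 and 703 CPM in KO, were above WT in all KO libraries but missed the threshold (edgeR adjusted p = 0.0848 and 0.217).

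The sebaceous gland gave 3 falls and 0 rises of 31 genes, against 3.58% of all genes lower, and all 3 were called throughout. *Scd3*, a stearoyl-CoA desaturase of sebocytes, was at 111, 52 and 74.9 CPM in WT and 8.59, 4.3 and 5.15 CPM in KO, a fall of 13.2-fold (log2 fold change -3.72, SE 0.64, edgeR adjusted p = 0.00816). *Plin2*, which coats lipid droplets, was at 707, 841 and 545 CPM in WT and 161, 183 and 195 CPM in KO (log2 fold change -1.96, SE 0.36, edgeR adjusted p = 0.0111). *Defb6*, a beta-defensin, was at 546, 229.6 and 458 CPM in WT and 114, 77.1 and 54.7 CPM in KO (log2 fold change -2.33, SE 0.37, edgeR adjusted p = 0.00526). *Scd1*, a related desaturase at 2728, 3560.2 and 4369 CPM in WT and 7047, 2979.8 and 7713 CPM in KO, overlapped between the groups. Of 20 adipocyte genes only *Cd36*, a fatty acid transporter of many cells, was called, near the share of all genes, at 1339.5, 1899 and 1411 CPM in WT and 587, 654 and 782 CPM in KO (log2 fold change -1.20, SE 0.24, edgeR adjusted p = 0.0163, 3 of 6 fits), but not without WT 2, KO 1 or KO 2. *Adipoq* (adiponectin), at 464, 452 and 674 CPM in WT and 271, 187 and 339 CPM in KO, and *Fabp4*, at 2949, 4273 and 3445 CPM in WT and 1699.7, 842 and 1558 CPM in KO, lay lower in all KO libraries without a call.

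Of 82 genes of oxidative phosphorylation 7 were called lower, against 3.58% of all genes, but for 68 the KO libraries were the 3 lowest, against 19.9% of all genes, and the median log2 fold change was -0.37. *Ndufb6*, a subunit of complex I, was at 52.9, 68.1 and 55.1 CPM in WT and 39.9, 35.8 and 38.2 CPM in KO (log2 fold change -0.63, SE 0.12, edgeR adjusted p = 0.0146, 4 of 6 fits). *Cycs* (cytochrome c) was at 175, 182 and 165 CPM in WT and 109, 82.4 and 106 CPM in KO (log2 fold change -0.81, SE 0.20, edgeR adjusted p = 0.0343, 0 of 6 fits). The number called was 2 without KO 1, 1 without WT 1, WT 3 or KO 3 and 0 without WT 2 or KO 2. Skeletal muscle is rich in these genes, and its 28 listed genes had a summed level of 10840 to 12700 CPM in WT and 10627, 3396 and 5733 CPM in KO 1, KO 2 and KO 3. Their part in these falls was not tested. *Myh4*, a fast myosin, had the largest fitted fall of all named genes, at 68.3, 1119 and 1126 CPM in WT and 15.8, 0.241 and 0.484 CPM in KO (log2 fold change -7.13, SE 1.95, edgeR adjusted p = 0.0488), with WT 1 far below the other WT libraries, and the call stood in 1 of the 6 fits. *Acta1*, the actin of skeletal muscle, overlapped at 2410.1, 1990.1 and 2470.2 CPM in WT and 2059, 589.6 and 1043 CPM in KO.

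Oxidative stress genes, of interest because the study exposes such skin to ZnO NPs, were read from 2 lists. Of 24 NRF2 targets 1 was called higher and 3 lower, against 4.61% and 3.58% of all genes, or 1 or 2 lower without any 1 library, KO 1 included, and 1 higher without KO 1 or KO 3 only. *Gstp1*, a glutathione transferase, was at 83.7, 95.2 and 92.7 CPM in WT and 49.6, 50.8 and 49.9 CPM in KO (log2 fold change -0.85, SE 0.13, edgeR adjusted p = 0.00526) and was called throughout. *Slc7a11*, the cystine carrier, was at 4.45, 9.69 and 6.08 CPM in WT and 20.9, 54.7 and 30.6 CPM in KO (log2 fold change 2.39, SE 0.52, edgeR adjusted p = 0.0214, 2 of 6 fits), while *Nqo1*, *Hmox1* and *Gclm* were not called (edgeR adjusted p = 0.338, 0.136 and 0.0907). Of 19 antioxidant genes 2 fell, against 3.58% of all genes: *Sod3*, the extracellular superoxide dismutase, at 212, 291 and 246 CPM in WT and 106, 112 and 65.5 CPM in KO (log2 fold change -1.40, SE 0.26, edgeR adjusted p = 0.0126, 5 of 6 fits), and *Prdx3*, called in 1 of the 6 fits. The number called lower was 2 without WT 1 or KO 1, 0 without WT 2 and 1 without any other library.

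Genes that act with Cdc42 were read as well. Of 35 effectors and polarity partners 4 were called higher and 1 lower, where 4.61% and 3.58% of all genes were. *Iqgap2*, a scaffold that binds active Cdc42, was at 54.8, 61.8 and 68.8 CPM in WT and 19.1, 28.8 and 22.7 CPM in KO (log2 fold change -1.39, SE 0.25, edgeR adjusted p = 0.00928) and was called throughout. *Pard6g*, a Par6 protein, was at 53.9, 51.4 and 50.2 CPM in WT and 109, 105 and 82.1 CPM in KO (log2 fold change 0.93, SE 0.22, edgeR adjusted p = 0.0303), but in 1 of the 6 fits, and *Pak6*, *Tnk2* and *Cdc42bpa* rose by 1.19, 0.47 and 0.55 on the log2 scale. The number of listed genes called higher was 0 without KO 1, KO 2, WT 2 or WT 3, 1 without WT 1 and 4 without KO 3, and *Cdc42bpa* was called in 0 of the 6 fits. Of 35 exchange factors, GTPase-activating proteins and GDIs 2 were called higher (*Arhgef7* and *Arhgap32*) and 4 lower (*Fgd4*, *Arhgef6*, *Arhgap17* and *Srgap2*), against the same shares of all genes, none of them throughout. The number of listed genes called lower was 0 without KO 1 or WT 2, 1 without KO 3 and 2 without any other library, and the number called higher 0 without WT 1 or WT 2 and 1 without any other library, KO 1 included. *Arhgef6* and *Arhgap17* were called in 0 of the 6 fits. *Srgap2*, which overlaps 5 other annotated genes, was at 105, 108 and 98.9 CPM in WT and 58.6, 74.6 and 67 CPM in KO (log2 fold change -0.64, SE 0.12, edgeR adjusted p = 0.014, 4 of 6 fits). Of 28 actin cytoskeleton genes, *Enah* and *Limk2* rose and *Arpc1b*, of the Arp2/3 complex, fell, each by at most 1.21 on the log2 scale, where 4.61% of all genes rose and 3.58% fell. They were called in 2, 5 and 0 of the 6 fits. Rises numbered 2 without WT 3 or KO 3, 0 without WT 2 and 1 without any other library, KO 1 included.

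Several programmes gave no call. In the edgeR fit of all 12 libraries, none of 76 cytosolic ribosomal protein genes, 19 clock genes or 22 NF-kB genes was called. The same held for 25 immediate early genes, 18 endothelial genes and 23 alarmin and cytokine genes. Without KO 1 these lists had no call either, but the alarmin and cytokine list had 1 without KO 2 and 1 with sex as a covariate. At an unadjusted p below 0.05 the lists had 2, 3, 2, 2, 6 and 1 genes in this order, and DESeq2 with the 6 libraries compared called 3, 2, 2, 5, 11 and 5. Of 40 cell cycle genes 1, *E2f1*, was called lower, near the 3.58% of all genes, though not without WT 2, WT 3 or KO 1. *Mki67*, the marker of dividing cells, was at 74.7, 73.4 and 156 CPM in WT and 96.8, 83.3 and 162 CPM in KO (log2 fold change 0.17, SE 0.36, edgeR adjusted p = 0.811). For 13 of the 18 endothelial genes the KO libraries were the 3 lowest, against 19.9% of all genes, and the median of the list was -0.58. *Pecam1*, a marker of endothelium, was at 247, 245 and 225 CPM in WT and 136, 172 and 170.3 CPM in KO (log2 fold change -0.58, SE 0.39, edgeR adjusted p = 0.379). It was called lower when only the 6 libraries compared were fitted, by edgeR and by DESeq2.

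Because KO 1 alone of the 6 libraries held Y-linked transcripts, the calls were also counted with the sex of the library as a covariate, which left 962 genes called. Of the 18822 genes tested, 576 were higher and 386 lower in that fit, and the list counts below are to be read beside these. The number called higher became 6 of 13 for the inner root sheath, 1 of 19 for the hair shaft, 6 of 37 for follicle growth regulators, 7 of 20 for Wnt targets, 2 of 17 for the Notch pathway and 2 of 17 for melanocytes. It became 2 of 15 for desmosomes, 6 of 25 for the basement membrane, 3 of 34 for the dermal matrix and 6 of 19 for metalloproteinases. Among immune lists it became 6 of 24 for T cells, 4 of 17 for B and plasma cells, 1 of 17 for MHC class II and Langerhans cells and 2 of 30 for chemokines. For the effectors of Cdc42 it became 0 of 35, for stress keratins 2 of 10 and for the cornified envelope 4 of 51. It remained at 3 for follicle stem cells, 3 for adherens and tight junctions, 2 for the regulators of Cdc42, 2 for the actin cytoskeleton and 1 for NRF2 targets. The number called lower became 24 of 38 for interferon-stimulated genes, 1 of 82 for oxidative phosphorylation, 1 of 35 for the regulators of Cdc42, 2 of 30 for chemokines, 1 of 34 for the dermal matrix, 1 of 18 for follicle stem cells, 1 of 19 for antioxidants and 3 of 20 for adipocytes. It became 0 for the Notch pathway, follicle growth regulators, skeletal muscle and the actin cytoskeleton. It remained at 3 each for sebaceous gland, macrophage and NRF2 lists and at 1 each for the effectors, the basement membrane and the cell cycle.

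Genes next to *Cdc42* on chromosome 4 were counted, because a floxed allele can carry the flanking DNA of the strain in which it was made. Within 5 Mb, 13 of 174 tested genes (7.47%) were called, 9 higher and 4 lower, against 8.18% overall. The controls were themselves heterozygous or homozygous for the floxed allele, so both groups may carry such DNA, and its part was not tested. *Runx3*, a transcription factor of T cells and hair, was at 9.57, 6.11 and 8.33 CPM in WT and 27.1, 37.5 and 31.7 CPM in KO (log2 fold change 2.0, SE 0.24, edgeR adjusted p = 0.00128). *Themis2*, an adaptor of B cells and macrophages, was at 79.5, 60.5 and 60.3 CPM in WT and 11.7, 20.5 and 19.99 CPM in KO. *Arhgef19*, a guanine nucleotide exchange factor, was at 11.3, 7.2 and 10.5 CPM in WT and 42.4, 20.3 and 30.9 CPM in KO. These 3 were called throughout. Over the autosomes and X the share called lay between 6.35% and 11.1%, and 93.4% of all calls were protein-coding genes.

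The group labelled KO+ZnO NPs was then compared with that labelled WT+ZnO NPs, which share no library with KO and WT. Since *Cdc42* did not follow these labels, the values compare labelled groups and not known genotypes. Of the 867 genes called higher without ZnO NPs, 60.9% also had a positive log2 fold change there, and of the 673 called lower 23.3% had a negative one, against 48.1% with the same sign among all genes tested. The median log2 fold change of the genes called lower was -1.08 without and 0.26 with ZnO NPs, and that of the genes called higher 1.56 and 0.19. The interaction was called for 1633 genes (8.68% of those tested), among them 781 of the 1540. Since those were chosen on 1 side of the interaction, these values are a description. Y-linked transcripts were at 214.8 to 244.6 CPM in WT+ZnO NPs and at 233.9 CPM in KO+ZnO NPs 1, but at most at 0.0452 CPM in KO+ZnO NPs 2 and 3, so sex and label are mixed in those groups.

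**Figure D5:**
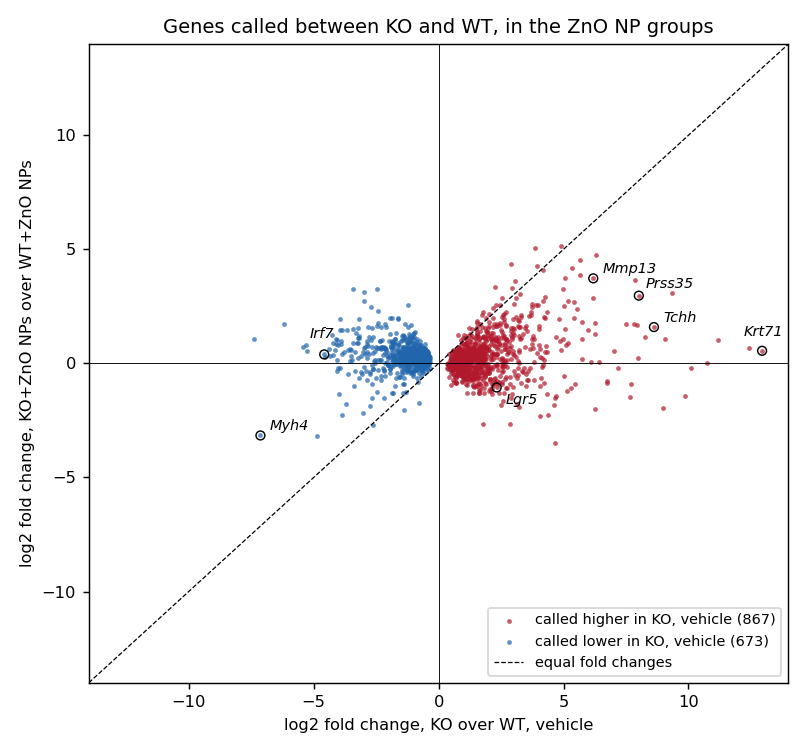
Log2 fold change of KO+ZnO NPs over WT+ZnO NPs against that of KO over WT without ZnO NPs for the 1540 genes called in the latter, higher in red and lower in blue, with the line of equal change dashed. Most points lie far from the line and near 0 on the vertical axis, while *Mmp13* and *Prss35* stay well above 0.

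Some rises were present in both pairs. *Mmp13* was at 5.4, 10.5 and 2.93 CPM in WT+ZnO NPs and 80.1, 147 and 22.1 CPM in KO+ZnO NPs, and *Prss35* at 2.08, 5.71 and 7.04 CPM in WT+ZnO NPs and 52, 41.6 and 22.5 CPM in KO+ZnO NPs, with all KO+ZnO NPs libraries above those labelled WT+ZnO NPs. *Col7a1* was at 107, 85.9 and 70.5 CPM in WT+ZnO NPs and 405, 452 and 205 CPM in KO+ZnO NPs, again without overlap. Others were not. *Lgr5* was at 67.3, 56.9 and 59.5 CPM in WT+ZnO NPs and 28.1, 34.9 and 25.4 CPM in KO+ZnO NPs, with all KO+ZnO NPs libraries the lower ones. *Cdh3* overlapped between the groups, at 98, 154 and 160.2 CPM in WT+ZnO NPs and 94.5, 101 and 64.5 CPM in KO+ZnO NPs. For these 2 genes the interaction was called (edgeR adjusted p = 0.00169 and 0.00466).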

How the data were processed

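RNA of whole dorsal skin was sequenced in 12 libraries. The authors deposited unnormalized read counts per gene in 1 table. The paper names STAR and HTSeq, whereas the submitters' processing notes name HISAT2 2.0.5 and mm10; the kit also differs between the sources (NEBNext, TruSeq), and the annotation release and the strand setting are not given in the sources used here, so reads of overlapping genes may be mixed. Gene names came from GENCODE M21, which matched 52489 of 52636 identifiers.

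Genes passing filterByExpr were fitted with edgeR 4.0.16 (R 4.3.3; TMM, quasi-likelihood, 1 coefficient per group, all 12 libraries), with Benjamini-Hochberg adjustment over 18822 genes and a threshold of 0.05. SEs are the log2 fold change divided by the root of F. DESeq2 1.42.0 was an alternative. On simulated counts with 200 genes changed by 3 on the log2 scale, 87% were recovered and 3.87% of calls were false. The simulation gave each gene the same spread in all groups and no sex difference. Its share of false calls therefore need not hold for the calls reported here. Genes were named by rule: *Cdc42*; among called protein-coding genes without overlap and with a mean of at least 10 CPM, the 12 largest changes and 5 smallest p in each direction; the first 3 genes and all called genes of each list; called genes within 5 Mb of *Cdc42*; and sex genes. Members and lists were chosen with earlier results of these data known. Promoter sequences are from RefSeq (GRCm38.p6). Replicate numbers did not pair samples (correlations -0.0342, 0.0255 and 0.00728). Intervals of sequencing depth cover counting error only. Some genes and 1 gene list are not reported here.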

Additional observations from a re-analysis of the deposited data

Results flagged for a closer look

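The difference between the groups labelled KO and WT differed between skin without and with ZnO NPs for 1633 genes, by the test of that difference itself (edgeR interaction term, Benjamini-Hochberg adjustment). A positive value means that KO over WT was higher, on the log2 scale, in the ZnO NP groups than without ZnO NPs. Among interferon-linked and macrophage genes the interaction was 4.97 for *Irf7*, 4.74 for *Ifit1*, 4.82 for *Ifit3*, 3.71 for *Isg15*, 4.36 for *Rtp4*, 4.10 for *Bst2* and 4.15 for *Fcgr1*. Among follicle and melanocyte genes it was -3.38 for *Lgr5*, -2.73 for *Cdh3*, -2.38 for *Jag1*, -12.39 for *Krt71* and -5.12 for *Mlana*. It was -2.24 for *Col7a1* and -4.97 for *Matn4*, both matrix genes that rose, and -5.04 for *Prss35*, a serine protease-like gene that rose. All these genes were called between KO and WT without ZnO NPs, which is 1 side of the interaction, so the values are a description. That of *Krt71* rests on WT libraries of at most 0.42 CPM. The libraries labelled WT+ZnO NPs enter each of these values, and their *Cdc42* level goes against their label. Sex is also unevenly spread over the 4 groups, and its part in these values was not tested.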

How the results depend on the processing

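The 1540 calls became 3082 with DESeq2 on 12 libraries, 4511 with DESeq2 on the 6 libraries compared, 2794 with edgeR on those 6, 962 with sex as a covariate, 1023 with a fold of at least 2 and 332 at an adjusted p below 0.01. Genes called higher were 1657, 2251, 1421, 576 and 170 with DESeq2 on 12, DESeq2 on 6, edgeR on 6, sex as a covariate and the stricter threshold. Genes called lower were 1425, 2260, 1373, 386 and 162 in this order, and 371 with a fold of at least 2. Leaving out 1 replicate gave 377 to 917 calls, 181 to 579 higher and 196 to 372 lower. RLE factors gave 1504 calls, library size alone 1561, no filter 1398 and at least 10 counts in every library 1455. The replicate numbers share only a number, and the replicate block gave 1239 calls (671 higher, 568 lower). The log2 fold change of *Cdc42* passed the threshold with library size alone (-0.49, edgeR adjusted p = 0.0409), DESeq2 on 12 (-0.50), DESeq2 on 6 (-0.47) and edgeR on 6 (-0.47), and without 1 replicate it was -0.52 to -0.45. The cause of these differences was not tested.

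Of the 139 called genes named above, 65 were called in every alternative run and 0 changed direction. The share of called genes with the same direction in the ZnO NP groups was 41.6% to 49.4% without 1 replicate. With 3 libraries a group, the calls depend on WT 2 most, and genes near 0 in WT have fold changes set by few counts.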
